A study of Mus musculus with 6 samples.

Results

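The voltage-gated sodium and calcium channel genes of the mouse frontal cortex were compared between animals given the histone deacetylase inhibitor SAHA (suberoylanilide hydroxamic acid, vorinostat) and animals given vehicle. They were taken as every gene whose symbol begins with Scn, a number and a or b, with Cacna1 or Cacna2, or with Cacnb1 to Cacnb4, which gave 28 of the 19938 genes measured: 8 sodium channel alpha subunits, 3 sodium channel beta subunits, 10 calcium channel alpha-1 subunits, 4 alpha-2-delta subunits and 3 calcium channel beta subunits. All animals were wild-type 129S6/SvEv mice aged 8 to 12 weeks. The treated group received SAHA at 20 mg/kg for 21 days, the control group received vehicle, named saline in the sample titles, over the same period, and the frontal cortex of both hemispheres was dissected 1 day after dosing ended. There were 3 libraries per group, each hybridised to 1 whole-transcript Affymetrix array. Whether the libraries of a group are different mice is not stated in the labels. The p-values therefore speak for these samples only, and having 6 arrays limits the precision. SEs, intervals and p-values come from limma with eBayes. It draws the variance of each gene toward a value common to all genes, so they do not rest on that gene's spread alone.

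A voltage-gated sodium channel is a single large alpha subunit that forms the pore and opens on depolarisation, joined by small beta subunits with an immunoglobulin fold that alter gating and anchor the channel in the membrane. In cortical neurons the channels gather at the axon initial segment and start the action potential. Voltage-gated calcium channels have a related pore, the alpha-1 subunit, whose traffic to the membrane depends on an extracellular alpha-2-delta subunit and a cytoplasmic beta subunit. They couple electrical activity to transmitter release at terminals and to signalling to the nucleus from dendrites and the cell body.

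None of the 28 genes passed the test between the groups. limma with Benjamini-Hochberg adjustment over all genes called 0 of 28 at an adjusted p under 0.05, as it called 0% of all 19938 genes, and the adjusted p of the 28 lay between 0.329 and 0.972. An unadjusted p under 0.05 was reached by 0 of 28, where 17.4% of all genes reached it. Of the 28, 20 had a signal at or above the median of all genes, a range in which 12.4% of all genes reached it. The 3 SAHA values lay entirely on one side of the 3 saline values for 5 of 28, against 23.9% of all genes. Lower in SAHA were Scn2a, Scn2b, Scn3b and Cacnb1 (4 genes, against 10.4% of all genes). Cacna1a was higher (1 gene, against 13.6%). All 5 had a signal at or above the median of all genes. In that range 1733 of 9969 genes were apart and lower, and 711 were apart and higher. Differences, always SAHA minus saline on the log2 scale, ran from -0.14 for Scn3b to 0.19 for Scn11a, with a median of -0.0054 where the median of all genes was 0.011. The median size of the difference regardless of sign was 0.058, against 0.093 over all genes, and the median SD within groups was 0.083, against 0.096. Over the limma 95% confidence intervals of the 28 genes, the lowest bound was 0.801-fold, for Scn3b, and the highest 1.32-fold, for Scn11a. A p above the threshold does not show that levels were equal, and these bounds give the sizes of change that the intervals still hold. In whole tissue, fewer cells of a type and less RNA per cell cannot be told apart.

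**Figure D1:**
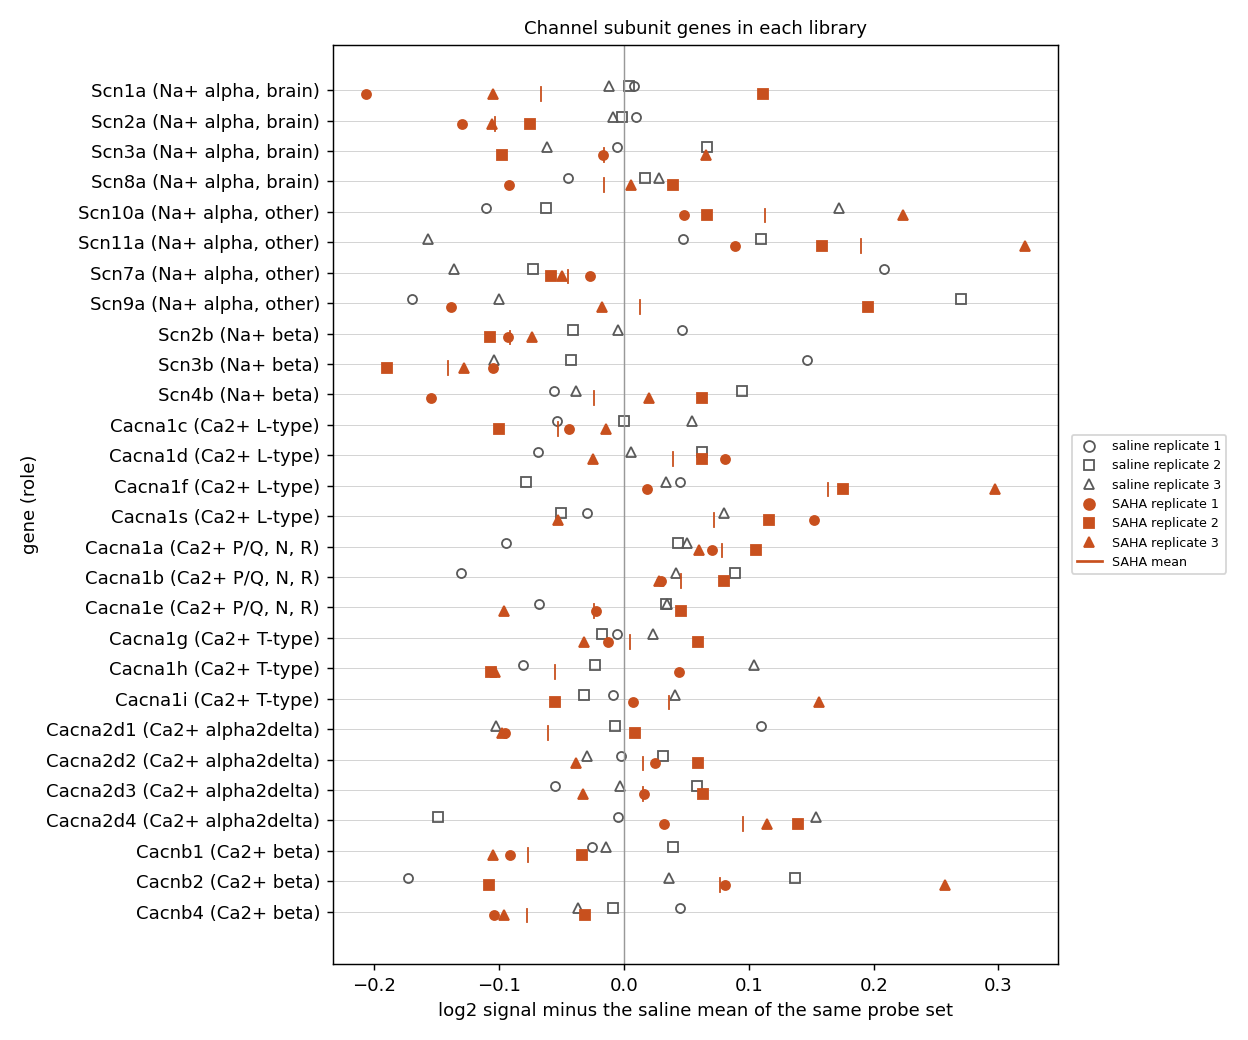
Signal of each channel gene in each library, as log2 signal minus the mean of the 3 saline libraries of the same probe set (x axis), with genes and their roles on the y axis, saline as open grey symbols, SAHA as filled orange symbols and the SAHA mean as a vertical bar. The SAHA symbols lie apart from the saline symbols for 5 genes, and the SAHA means run from -0.14 for Scn3b to 0.19 for Scn11a.

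The alpha subunits of the brain, Scn1a, Scn2a, Scn3a and Scn8a, were each slightly lower on average in SAHA, with differences between -0.10 and -0.016. Of genes at or above the median signal, as these are, 6620 of 9969 were lower. Scn3a and Scn8a turned to 0.015 and 0.037 after quantile normalization and to 0.013 and 0.041 after cyclic loess normalization. Scn2a encodes Nav1.2, the channel of unmyelinated axons and of the initial segment of young pyramidal neurons. Its log2 signal was 12.20, 12.19 and 12.18 in saline replicates 1 to 3 and 12.06, 12.12 and 12.09 in SAHA replicates 1 to 3. All 3 SAHA libraries lay below all 3 saline libraries, at means of 12.19 ± 0.0091 and 12.09 ± 0.027 (SD, n = 3). The difference was -0.10 (SE 0.054), at an adjusted p of 0.356 in limma. The lowest SE of any gene was 0.053. With an eBayes variance that follows signal, limma gave Scn2a an unadjusted p of 0.0079 and an adjusted p of 0.139. In that fit 19% of all genes had an unadjusted p under 0.05. For Scn2a, quantile normalization gave -0.071 and cyclic loess -0.057. The Scn2a difference kept its sign without each library in turn, between -0.12 and -0.090.

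Scn1a encodes Nav1.1, the main sodium channel of fast-spiking interneurons, whose loss causes Dravet syndrome. Its signal was 10.84, 10.84 and 10.82 in saline and 10.63, 10.94 and 10.73 in SAHA. The saline libraries were close together, and the SAHA libraries lay on both sides of them, so the groups overlapped, with a difference of -0.067 (SE 0.085). Without SAHA replicate 1 the difference was 0.0034. Scn8a, encoding Nav1.6, the channel of mature initial segments and nodes of Ranvier, was at 9.67, 9.73 and 9.74 in saline and at 9.62, 9.76 and 9.72 in SAHA. The ranges were nearly the same, and the difference was -0.016 (SE 0.062). Scn3a, encoding Nav1.3 of the embryonic brain, differed by -0.016 (SE 0.068).

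**Figure D2:**
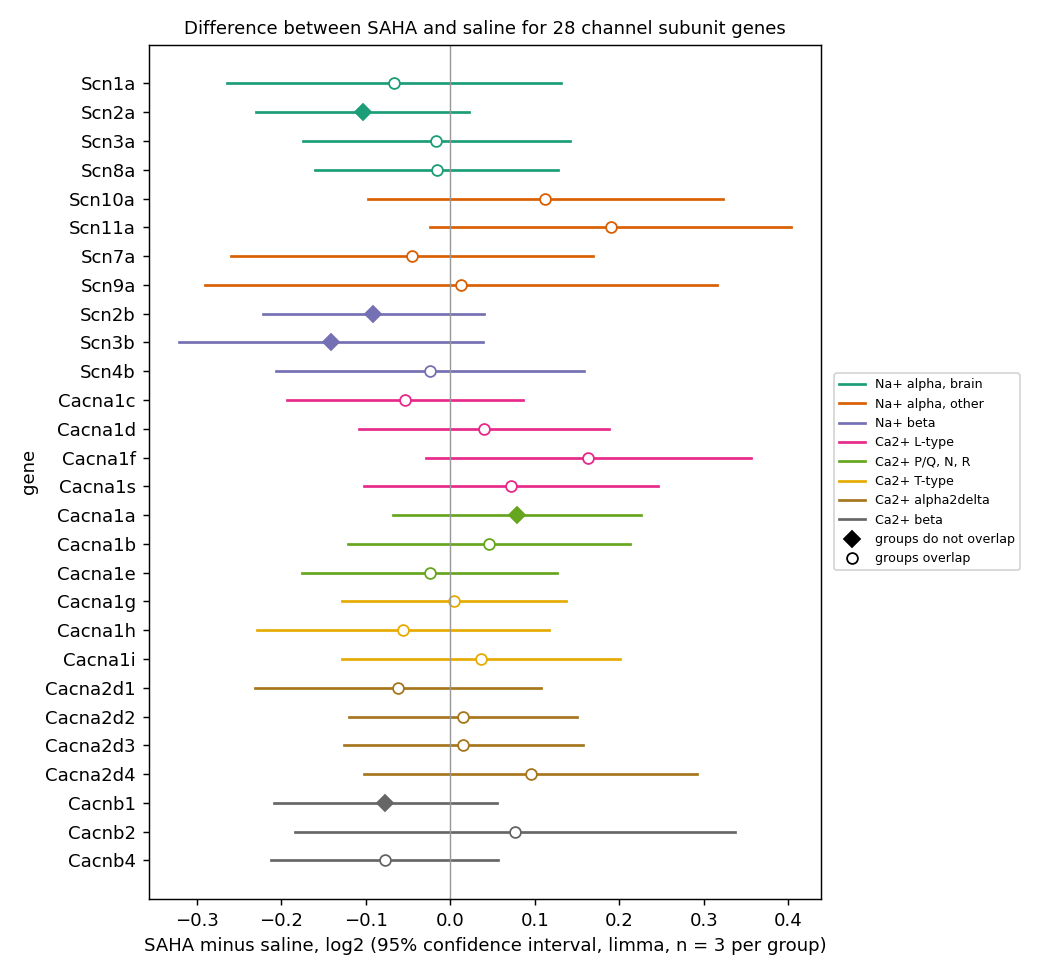
Difference between SAHA and saline for each channel gene (x axis, log2) with its 95% confidence interval from limma, 3 libraries per group; colours mark the subunit class and filled diamonds the genes whose groups did not overlap. Every interval crosses 0, from -0.32 at the lower end of Scn3b to 0.40 at the upper end of Scn11a.

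The array holds 14 probe sets that match Scn2a alone, and they did not all behave alike. Of these, 13 were lower in SAHA and 1 was higher, and for 9 all SAHA values lay below all saline values, where 9.94% of all 35556 probe sets did so and 22.6% were apart in either direction. In the fit over all probe sets 5 of the 14 had an unadjusted p under 0.05, each of these a lower one, against 5.44% of all probe sets lower at that p and 14.9% in either direction. None passed after Benjamini-Hochberg adjustment in limma, at a lowest adjusted p of 0.249. The shares over all probe sets take in dim ones, while the 14 were bright, at mean signals from 8.27 to 12.14. Of the 9969 brighter genes, 1733 had SAHA wholly below saline and 711 wholly above. In the limma fit over genes, 825 of them fell and 410 rose at an unadjusted p under 0.05. Differences of the 14 probe sets ran from -0.29 to 0.079, with a median of -0.17, so the brightest probe set, at -0.10, gave a smaller difference than most. The one with the greatest difference was at 9.11, 8.91 and 8.95 in saline and at 8.65, 8.81 and 8.62 in SAHA. The exception, at 11.76, 11.62 and 11.70 in saline, stood at 11.75, 11.82 and 11.74 in SAHA, and its groups overlapped. The probe sets read 1 gene on the same 6 arrays, so they are not independent of each other.

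By library, the median over the 14 probe sets relative to the saline mean was 0.082, -0.023 and -0.060 in saline replicates 1 to 3 and -0.16, -0.094 and -0.18 in SAHA replicates 1 to 3. The SAHA medians lay below all saline medians, with a gap between saline replicate 3 and SAHA replicate 2 that was smaller than the spread within saline. The count of lower probe sets was 11 of 14 under either quantile normalization or cyclic loess, with 2 at an unadjusted p under 0.05 in each, and it was 13 without any single library. The count at an unadjusted p under 0.05 was 8 after median centring, at a median of -0.22, and it was 1 without saline replicate 1, 3 without saline replicate 2, and 2 without SAHA replicate 1 or SAHA replicate 3. With the mean of the 14 probe sets in place of the brightest, Scn2a differed by -0.14, at an adjusted p of 0.299 in limma. Another 3 probe sets were left out because each matches more than 1 of Scn1a, Scn2a, Scn3a and Scn9a, paralogs that are alike in sequence.

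**Figure D3:**
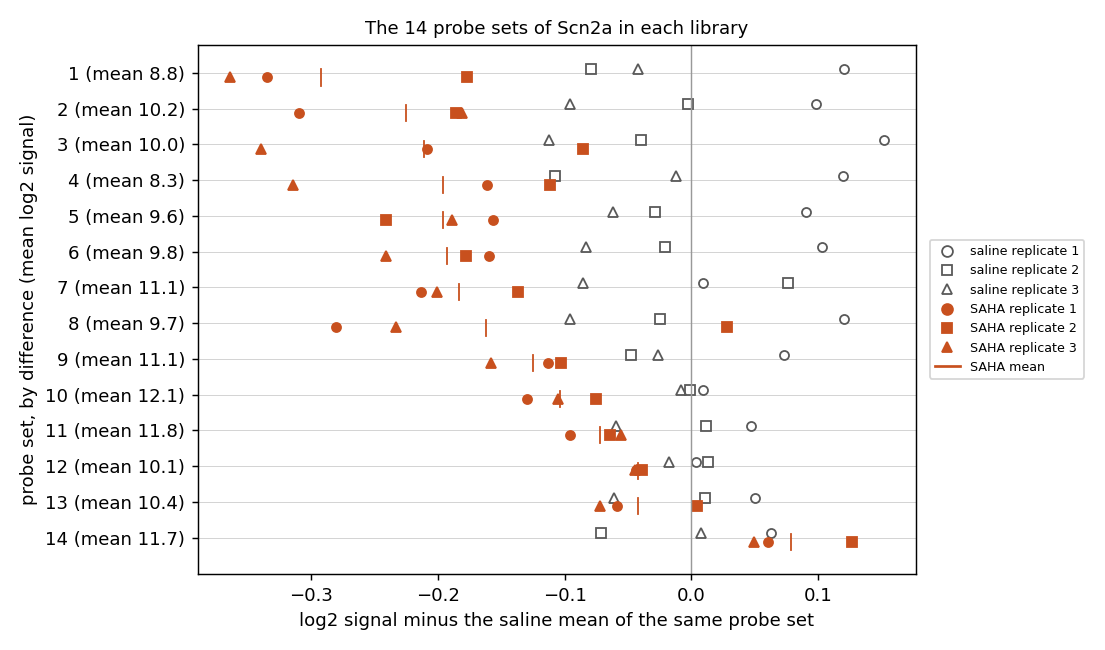
The 14 Scn2a probe sets in order of their difference (y axis, with the mean log2 signal of each), as log2 signal minus the saline mean of the same probe set (x axis), with saline as open grey symbols, SAHA as filled orange symbols and the SAHA mean as a vertical bar. The SAHA mean lies below 0 for 13 of the 14, down to -0.29, and at 0.079 for the last.

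The promoters of the channel genes whose groups did not overlap are shown because Scn2a, Scn2b and Cacnb1 had the same direction; windows for Cacna1a and Scn3b were not used here. The stretches are the 250 bases before each RefSeq transcription start of build GRCm38.p6, written from 5′ to 3′ on the strand of the gene, with CG dinucleotides, the target of DNA methylation, in capitals. Scn2a has 2 starts on the plus strand, at chr2:65620519-65620768 and chr2:65668436-65668685, Scn2b has 1 on the plus strand, at chr9:45117626-45117875, and Cacnb1 has 2 on the minus strand, at chr11:98022628-98022877 and chr11:98018373-98018622.
Scn2a, first start: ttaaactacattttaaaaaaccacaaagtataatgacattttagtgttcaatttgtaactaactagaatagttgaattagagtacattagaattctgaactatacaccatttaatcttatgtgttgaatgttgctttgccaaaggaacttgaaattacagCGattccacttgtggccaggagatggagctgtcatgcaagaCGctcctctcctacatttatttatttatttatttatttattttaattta
Scn2a, second start: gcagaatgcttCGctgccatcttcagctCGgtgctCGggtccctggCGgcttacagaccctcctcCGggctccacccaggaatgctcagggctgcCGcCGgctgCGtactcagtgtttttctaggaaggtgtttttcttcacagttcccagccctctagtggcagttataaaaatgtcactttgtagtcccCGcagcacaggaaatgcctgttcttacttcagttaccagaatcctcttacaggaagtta
Scn2b: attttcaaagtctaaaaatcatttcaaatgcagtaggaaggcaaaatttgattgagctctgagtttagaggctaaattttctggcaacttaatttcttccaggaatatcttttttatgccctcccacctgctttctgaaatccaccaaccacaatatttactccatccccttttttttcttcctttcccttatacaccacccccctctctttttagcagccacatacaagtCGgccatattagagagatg
Cacnb1, first start: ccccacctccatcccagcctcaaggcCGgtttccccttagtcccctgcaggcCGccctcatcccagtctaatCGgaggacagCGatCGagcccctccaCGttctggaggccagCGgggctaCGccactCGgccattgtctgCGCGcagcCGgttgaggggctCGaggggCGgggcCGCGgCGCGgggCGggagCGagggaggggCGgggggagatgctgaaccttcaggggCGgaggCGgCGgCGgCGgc
Cacnb1, second start: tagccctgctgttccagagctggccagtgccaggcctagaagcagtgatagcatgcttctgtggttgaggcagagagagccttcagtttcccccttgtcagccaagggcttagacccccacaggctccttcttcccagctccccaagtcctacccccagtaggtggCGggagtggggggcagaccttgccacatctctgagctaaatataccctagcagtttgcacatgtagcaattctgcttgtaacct
These promoters do not share one base composition. The first Scn2a stretch holds 2 CG dinucleotides at a G+C content of 29.6%, the second 9 at 53.2%, and the Scn2b stretch 1 at 38.4%. The first Cacnb1 stretch holds 26 at 73.2%, and the second 1 at 56%. RefSeq windows, which take in these stretches and run a little past the start, were matched for 22 of the 28 genes, 31 windows in all, and had a median of 11 CG dinucleotides where all 32851 windows had 7. The GC box, searched as GGGCGG on both strands, was in 38.7% of the channel gene windows and in 35.7% of all windows, and the first Cacnb1 window holds it. The TATA box, searched as TATAAA on both strands, was in 6.45% and 13.6%, and the second Scn2a window holds it. A match is a description of these letters and not a binding site.

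The other alpha subunits serve mainly tissues outside the brain. Scn9a, encoding Nav1.7 of pain-sensing neurons, was at 6.80, 7.24 and 6.87 in saline and at 6.83, 7.17 and 6.95 in SAHA, with a difference of 0.013 (SE 0.13). Each group had 1 high library, replicate 2 in both, and the groups overlapped. Its other probe set differed by -0.081. Scn10a and Scn11a, encoding Nav1.8 and Nav1.9 of dorsal root ganglia, differed by 0.11 (SE 0.091) and 0.19 (SE 0.092). Scn11a had the lowest unadjusted p of the 28 genes, at 0.0741 in limma, with an adjusted p of 0.329, and its values were 5.002, 5.06 and 4.80 in saline and 5.04, 5.11 and 5.28 in SAHA. The groups overlapped by the order of 1 pair of libraries. Scn7a, encoding the sodium-sensing channel Nax of glia and circumventricular organs, differed by -0.045 (SE 0.093) and turned to 0.059 without saline replicate 1, where it was at 6.07 against 5.73 to 5.84 in the 5 other libraries. Scn1a, Scn2a, Scn3a, Scn7a and Scn9a lie on chromosome 2, where 4 of these 5 had a mean below saline. Cacna1b, Cacnb2 and Cacnb4 lie there too, at 0.046, 0.077 and -0.077. Scn10a and Scn11a, with means above saline, lie on chromosome 9. The beta subunit genes Scn2b, Scn3b and Scn4b, with means below saline, lie there as well, and so does Cacna2d2, at 0.015. Scn10a and Scn11a fall in the second dimmest decile of signal, where 77.3% of all genes were higher. The 3 beta subunit genes were at or above the median signal, where 6620 of 9969 genes were lower. The part of position was not tested.

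All 3 sodium channel beta subunits measured had a lower mean in SAHA, by values between -0.14 and -0.024. Of genes at or above the median signal, as these are, 6620 of 9969 were lower. Scn2b, encoding the beta-2 subunit that bonds to the alpha subunit through a disulfide bridge, was at 9.49, 9.41 and 9.44 in saline and at 9.35, 9.34 and 9.37 in SAHA. The groups did not overlap, at means of 9.45 ± 0.044 and 9.36 ± 0.017 (SD, n = 3) and a difference of -0.091 (SE 0.056), with an adjusted p of 0.426 in limma. Scn3b, encoding the beta-3 subunit, which binds without that bridge, was at 9.69, 9.50 and 9.43 in saline and at 9.43, 9.35 and 9.41 in SAHA. The ranges touched within rounding, and saline replicate 1 stood above the others. The difference was -0.14 (SE 0.078), with an adjusted p of 0.375 in limma, and -0.068 without saline replicate 1. After quantile normalization Scn2b and Scn3b were at -0.036 and -0.087.

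Scn4b encodes the beta-4 subunit, which supports resurgent sodium current and is abundant in striatal medium spiny neurons. It differed by -0.024 (SE 0.079), with values of 7.83, 7.98 and 7.85 in saline and 7.73, 7.95 and 7.90 in SAHA. The 6 markers of striatal neurons measured (among them Drd1, Drd2 and Ppp1r1b) had medians relative to saline of -0.10, -0.20 and 0.30 in the saline libraries and -0.20, -0.22 and 0.20 in the SAHA libraries. The striatal median was highest in replicate 3 of each group, though Ppp1r1b alone read 8.45, 8.40 and 8.41 in saline replicates 1 to 3. Scn4b was highest in replicate 2 of each group. These are orders of only 3 libraries per group. The part of striatal tissue in the Scn4b values was not tested.

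Among calcium channel alpha-1 subunits, Cacna1a alone had groups that did not overlap. It encodes Cav2.1, the P/Q-type channel that drives fast transmitter release. Its signal was 9.29, 9.43 and 9.44 in saline and 9.46, 9.49 and 9.45 in SAHA. All SAHA values lay above all saline values, but 2 saline libraries were close to them and saline replicate 1 was lower. The means were 9.39 ± 0.082 and 9.47 ± 0.024 (SD, n = 3), a difference of 0.079 (SE 0.064) with an adjusted p of 0.536 in limma. It was 0.032 without saline replicate 1, 0.033 after median centring, and 0.13 under quantile normalization and under cyclic loess alike. Cacna1b, encoding the N-type channel Cav2.2, also had its lowest value in saline replicate 1 and differed by 0.046 (SE 0.072). Cacna1e, encoding the R-type channel Cav2.3, was at 10.38, 10.48 and 10.48 in saline and at 10.42, 10.49 and 10.35 in SAHA, so the ranges overlapped throughout. Its difference was -0.024 (SE 0.065), and it turned to 0.026 under quantile normalization and 0.032 under cyclic loess.

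The L-type channels of cortical neurons, Cacna1c and Cacna1d, encode Cav1.2 and Cav1.3, through which calcium entry reaches the transcription machinery of activity-dependent genes. Cacna1c was at 8.34, 8.39 and 8.45 in saline and at 8.35, 8.29 and 8.38 in SAHA. The groups overlapped, with a difference of -0.053 (SE 0.060) and a 95% confidence interval from 0.875-fold to 1.06-fold. Cacna1d differed by 0.040 (SE 0.064) and was at -0.0063 after median centring. Cacna1s, the channel of skeletal muscle, and Cacna1f, the channel of photoreceptor terminals, which is X-linked, differed by 0.072 (SE 0.075) and 0.16 (SE 0.083). For Cacna1f, values were 5.99, 5.87 and 5.98 in saline and 5.97, 6.12 and 6.25 in SAHA, and 1 SAHA library lay among the saline libraries. Its interval reached 1.28-fold.

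The T-type channels, which open near rest and support burst firing, had a median difference of 0.0049 over 3 genes, which differed in sign. The median was 0.056 for the L-type channels, which include the dim Cacna1f and Cacna1s, and 0.046 for the P/Q, N and R types. Regardless of sign, the median sizes were 0.036, 0.063 and 0.046 in that order. Cacna1g, encoding Cav3.1, was at 7.68, 7.67 and 7.71 in saline and at 7.68, 7.75 and 7.66 in SAHA. The SAHA range took in the saline range on both sides, and the difference was 0.0049 (SE 0.057), with a 95% confidence interval from 0.915-fold to 1.10-fold. Cacna1h, encoding Cav3.2, and Cacna1i, encoding Cav3.3, differed by -0.055 (SE 0.075) and 0.036 (SE 0.071).

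The alpha-2-delta subunits, of which the first 2 bind the gabapentinoid drugs, differed by values between -0.061 and 0.095, and their groups overlapped for all 4 genes. Cacna2d1 was at 11.56, 11.45 and 11.35 in saline and at 11.36, 11.46 and 11.36 in SAHA, a difference of -0.061 (SE 0.073), and its other probe set differed by -0.059. The difference was -0.0064 without saline replicate 1 and -0.11 without saline replicate 3. Saline replicate 1 was high, and the rest lay between 11.35 and 11.46. Cacna2d2 and Cacna2d3 differed by 0.015 (SE 0.058) and 0.016 (SE 0.061), and Cacna2d4, a subunit of the retina, by 0.095 (SE 0.085).

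The cytoplasmic beta subunits bind the first intracellular loop of the pore and shield it from degradation. Cacnb1 was at 8.60, 8.66 and 8.61 in saline and at 8.53, 8.59 and 8.52 in SAHA. The groups did not overlap, by a margin smaller than the spread within either group, and the difference was -0.077 (SE 0.057), with an adjusted p of 0.501 in limma. Cacnb4, the subunit mutated in the lethargic mouse, was at 11.16, 11.11 and 11.08 in saline and at 11.01, 11.08 and 11.02 in SAHA, a difference of -0.077 (SE 0.058). SAHA replicate 2 lay above saline replicate 3, so these groups overlapped. After quantile normalization Cacnb1 was at -0.029, with overlapping groups. Cacnb2 differed by 0.077 (SE 0.11), and its SAHA values, 6.15, 5.96 and 6.33, overlapped the saline range of 5.90 to 6.21.

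Differences among the channel genes tended to be lower where the signal of the probe set was higher, as over the whole array. The Spearman correlation between difference and mean signal was -0.65 over the 28 genes and -0.43 over all genes; genes share the same 6 arrays and are not independent, so this is a description. In the brightest decile of all genes the median difference was -0.051, and the 8 channel genes there had a median of -0.064. In the second dimmest decile the median was 0.11, and Scn10a and Scn11a, its only channel genes, had a median of 0.15. Other deciles matched less well: the 1 channel gene of the fifth, Cacna1h, was at -0.055 where all genes had 0.062, and the channel genes of the eighth and ninth were at -0.00043 and -0.015 where all genes had -0.050 and -0.059. The 20 channel genes at or above the median signal of all genes had a median of -0.020, where genes of that range had -0.039, and the 8 below it had 0.086, where such genes had 0.089. The table holds no detection calls, and whether the dim probe sets of channels of ganglia, muscle and retina read transcripts or background was not tested. The split of the 28 genes, 14 lower and 14 higher, moved to 20 lower after median centring, and to 12 lower after quantile normalization. The median of all genes moved too, from 0.011 to -0.035 after median centring and to 0.0098 after quantile normalization.

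**Figure D4:**
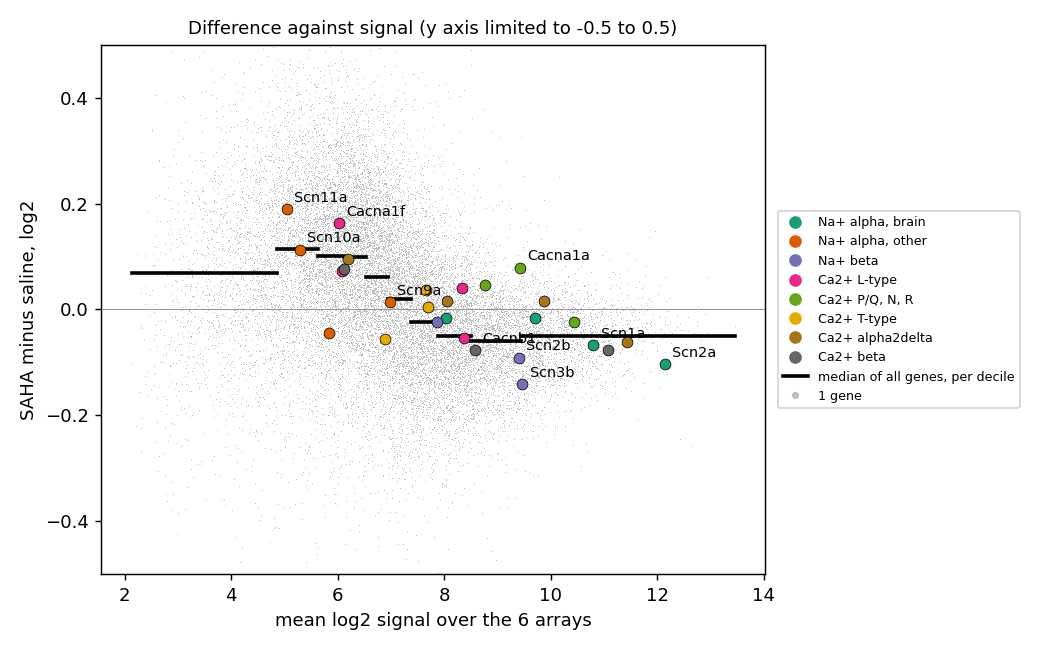
Difference between SAHA and saline (y axis, log2) against the mean log2 signal over the 6 arrays (x axis) for all genes as grey dots, with the median of each signal decile as a black bar and the channel genes as coloured circles; 81 genes lie beyond the y axis limits. The black bars run from 0.11 in the second decile to -0.051 in the last, and the median of the coloured circles is on the other side of 0 from the bar in the fifth and seventh deciles.

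Proteins that work with the channels were taken from a list of 52 genes, of which 46 were measured. In limma 0 passed the adjusted threshold and 1, Stac, had an unadjusted p under 0.05, or 2.17% where 17.4% of all genes did. The partner genes were mostly bright, at a median signal of 9.79, and in the brightest decile of all genes 5.32% reached that p. Stac, an adaptor that binds L-type channels, had means of 5.50 ± 0.065 for saline and 5.68 ± 0.048 for SAHA (SD, n = 3), with an adjusted p of 0.218 in limma. Groups did not overlap for 6 of 46, or 13.0%, against 23.9% of all genes. The Cacng genes were once counted as calcium channel gamma subunits and are mostly auxiliary subunits of AMPA receptors. Of 7 Cacng genes, 5 were higher, with a median of 0.080, where 10554 of all 19938 genes were higher. Their median signal was 8.01, and of genes at or above the median signal of all genes 3349 of 9969 were higher. Cacng1 was dimmer than that range, at 6.68. The list of sodium channel modulators holds the fibroblast growth factor homologues Fgf11 to Fgf14 and the ubiquitin ligase Nedd4l. It also holds Nalcn, a sodium leak channel outside the Scn genes, and its partners Unc79 and Unc80, at -0.044, -0.052 and -0.0030. Of 10 genes measured from this list, 8 were lower, with a median of -0.053, at a median signal of 9.95. In the brightest decile, which holds that signal, only 17.4% of all genes were higher and the median was -0.051. Genes of the axon initial segment, including Ank3, which tethers sodium channels there, had a median of -0.018 over 6 genes. Modulators of calcium channels had a median of -0.029 over 14 genes, and presynaptic scaffolds and their partners -0.0082 over 9. The median over all partners was -0.028, but quantile normalization put it at 0.012 and cyclic loess at 0.015.

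Other membrane channels of the cortex were set beside them without a test of the difference. Of 92 potassium channel genes measured, 13.0% had an unadjusted p under 0.05 and 21.7% had groups that did not overlap, with a median of 0.013, where the shares over all genes were 17.4% and 23.9%. Of 16 subunits of the GABA-A receptor, the main inhibitory receptor, 3 (18.8%, near the share over all genes) had an unadjusted p under 0.05 and 7 (43.8%) had groups that did not overlap, with a median of -0.010.

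Markers of cortical cells, and of blood, choroid plexus and skeletal muscle, were read on the same arrays. Signals of different probe sets cannot be ranked as abundance and the table holds no detection calls, so they give no check of the tissue label. Of 5 excitatory neuron markers 1, Neurod6, had an unadjusted p under 0.05, at a difference of -0.23, and Slc17a7 differed by 0.11. Among 6 interneuron markers Vip was at -0.20, among 6 microglial markers Aif1 at -0.21, and among 6 skeletal muscle markers Myh1 at -0.21. Each was the single one at that p in its list, where 17.4% of all genes reached it. Higher in SAHA were 2 of the 6 interneuron, 3 of the 6 microglial and 3 of the 6 muscle markers. Markers of oligodendrocytes had library medians of -0.19, -0.22 and 0.14 for SAHA replicates 1 to 3, against -0.041 to 0.029 in saline. Of 5 blood genes measured, 3 (60%, against 17.4% of all genes) had an unadjusted p under 0.05, all higher in SAHA: Slc4a1, S100a8 and S100a9. Alas2 and Ngp differed by only 0.044 and 0.0068. S100a8 and S100a9 are in the second dimmest decile, where 23.7% of all genes reached that p and 77.3% were higher. Slc4a1 is in the fourth, where the shares were 25.8% and 74%. Library medians of the 5 were 0.15 to 0.24 in SAHA and -0.050 to 0.034 in saline. Of 5 choroid plexus markers 1 (20%, near the share over all genes), Aqp1, had an unadjusted p under 0.05, at a difference of 0.42. Of these 5 markers, 4 were higher in SAHA and 1, Ttr, was lower, at -0.29. Saline replicate 1 stood apart in Xist, at 10.91 against 4.63 to 4.88 elsewhere. Its Y-linked signal was not low, with Uty reading 8.19, Kdm5d 8.11 and Eif2s3y 9.20. SAHA replicate 3 stood apart in Y-linked signal instead, with Uty at 6.74 against 7.93 to 8.24 elsewhere. There Kdm5d read 7.23 against 7.90 to 8.11, and Eif2s3y 7.80 against 9.18 to 9.25, while Xist stayed low at 4.76. The cause of either pattern was not tested. Without both libraries, limma called 0 of the 28 genes and the median of the 28 was -0.025. The part of cell composition in the differences was not tested.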

How the data were processed

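Total RNA from mouse frontal cortex was amplified with a whole-transcript kit and labelled with biotin, per the labels' protocols. The authors' table holds log2 signals for 35556 probe sets, made with Affymetrix Expression Console and RMA per the submitters' processing notes, with no version named; the log2 scale was read from the values, 1.43 to 14.2. RMA includes a background correction and a normalization across arrays, so a shift in 1 array's signal spreads over its probe sets. Per-array scanner files were not used here, and 0 columns of values were left out.

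A gene was represented by the brightest of its probe sets with exactly 1 symbol in the platform annotation (21789 probe sets; 1621 have several symbols and 12146 none). All 28 channel genes matched the RefSeq table of GRCm38.p6. Some genes of the name pattern are not reported here. The titles gave each sample's group and number. The comparison of SAHA and saline was fitted in limma 3.58.1 (R 4.3.3; lmFit, eBayes, no block, no filter), two-sided, adjusted by Benjamini-Hochberg over all 19938 genes at 0.05. The script was tested on simulated data. The members, gene lists and rule for full values (non-overlapping groups, unadjusted p under 0.05, the brightest of each class, and Scn1a, Scn2a, Scn8a, Cacna1a and Cacna1c) were chosen with earlier results of these data known; values per library for Scn11a, Cacna1f, Scn4b, Scn7a and Cacnb2 were added after they were seen. Alternatives were 3 scalings, a signal filter, other probe set rules, variance trends, array weights, a replicate block and libraries left out. Same-numbered libraries did not deviate together. Figures were drawn with matplotlib 3.10.9.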

Additional observations from a re-analysis of the deposited data

How the results depend on the processing

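Under all 17 alternatives limma called 0 of the channel genes, and single-gene differences kept their sign in 422 comparisons with the deposited values and turned it in 46. The number of all genes past the adjusted threshold was 27 when dimmer genes were dropped at the median signal, 28 under a trended variance and 31 under a robust one. Channel genes at an unadjusted p under 0.05 numbered 1 after median centring (Scn2a), 2 with a trend and 2 with a robust trend (Scn2a and Scn3b), 0 to 1 with 1 library left out (Scn11a without saline replicate 2, Scn10a without saline replicate 3, Cacna1f without SAHA replicate 1), and 5 of 43 probe sets, all of Scn2a; the shares over all genes or probe sets were 17.8%, 19%, 18.9%, 12.2% to 19.4% and 14.9% in that order. Genes with non-overlapping groups numbered 2 for quantile normalization and 3 for cyclic loess, 6 to 8 with 1 library left out, 8 without both saline replicate 1 and SAHA replicate 3, and 13 of 43 probe sets. The shares over all genes moved too, to 20.2%, 19.8%, 31.1% to 41.2%, 42.3% and 22.6% in that order. The median over the channel genes was -0.051 after median centring, where all genes had -0.035, and -0.045 over probe sets, where all probe sets had 0.0064. The partner median was -0.074 when centred, 0.012 with quantile normalization, 0.015 with cyclic loess, and -0.013 when both libraries were dropped. The replicate block changed no call, at a lowest adjusted p of 0.409 among the channel genes; same-numbered libraries had correlations of deviations of -0.10, -0.079 and 0.015, 0 of 6 libraries correlated best with their own number, and the block gave 3 Scn2a probe sets at an unadjusted p under 0.05.

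Signs turned as follows. After median centring Cacna1d was at -0.0063, Cacna1g at -0.041, Cacna1i at -0.0097, Cacna2d2 at -0.031, Cacna2d3 at -0.030 and Scn9a at -0.033. After quantile normalization Cacna1e was at 0.026, Scn3a at 0.015, Scn8a at 0.037 and Scn9a at -0.026. After cyclic loess Cacna1e was at 0.032, Cacna1s at -0.017, Cacnb2 at -0.012, Scn3a at 0.013, Scn8a at 0.041 and Scn9a at -0.026. The mean of its probe sets put Scn9a at -0.034, and array weights put Cacna1g at -0.0035, Cacna2d3 at -0.0014 and Scn9a at -0.028. Without both libraries Cacna1b was at -0.010, Cacna1i at -0.028, Cacna2d1 at 0.012, Cacnb2 at -0.10, Scn7a at 0.062 and Scn9a at -0.056. With 1 library left out, Cacna1b ranged from -0.019 to 0.090, Cacna1e from -0.059 to 0.012, Cacna1g from -0.022 to 0.023, Cacna1i from -0.024 to 0.082, Cacna2d2 from -0.0067 to 0.042, Cacna2d3 from -0.012 to 0.045, Cacnb2 from -0.013 to 0.17, Scn1a from -0.16 to 0.0034, Scn3a from -0.057 to 0.025, Scn4b from -0.067 to 0.042, Scn7a from -0.11 to 0.059, Scn8a from -0.043 to 0.023 and Scn9a from -0.078 to 0.15. The cause of these shifts was not tested.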
